A study of Mus musculus with 10 samples.

Results

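The Gimap family comprises GTPases of immunity-associated proteins. The 8 members listed in the expression files are Gimap1, Gimap3, Gimap4, Gimap5, Gimap6, Gimap7, Gimap8 and Gimap9. They were followed here in pro-B or progenitor cells of 4 Pax5 genotypes, together with the Pax5 peaks in their gene cluster. Members were taken by symbol. They are all of the 8 symbols that begin with Gimap among the 25579 genes listed, and all 8 passed the filter of at least 1 TPM (reads scaled to transcript length and library total) in at least 1 library, as did 13436 genes in all.

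RNA-seq was performed on bone marrow cells sorted ex vivo from mice, with 2 libraries per genotype. Pax5+/+ cells were wild type, Pax5+/- cells had lost 1 allele, and Pax5 R31Q/- cells combined a null allele with an allele coding for Pax5 with a glutamine in place of arginine in its DNA-binding paired domain. Pax5-/- cells came from Pax5 fl/fl mice with Vav-Cre, a recombinase that is active throughout blood cells. The labels call the Pax5-/- cells progenitors and the other 3 genotypes pro-B cells. The sorting gate of the Pax5-/- cells is not given in the sources used here. Pax5 ChIP-seq was performed with 1 library of pro-B cells labelled Rag2-/-, with wild-type Pax5, and 1 library of Pax5 R31Q/- pro-B cells, both expanded in culture with stromal cells and IL-7. The labels do not say whether the 2 libraries of a genotype came from separate mice, so the p-values measure the spread between these samples, which may be technical.

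Gimap proteins bind GTP through a domain related to that of septins and are found mainly in lymphocytes, where several of them control survival. Gimap5 sits on lysosomes and is needed for the survival of T cells, Gimap1 is needed for mature T and B cells, and Gimap6 takes part in autophagy. Gimap3 is anchored at the mitochondrial membrane, and Gimap4 promotes the death of T cells. Pax5 is the transcription factor that commits progenitors to the B cell lineage, where it activates B cell genes and represses genes of other lineages.

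The 8 genes lie together on chromosome 6 at chr6:48647186-48770851 (GRCm38) in the order Gimap8, Gimap9, Gimap4, Gimap6, Gimap7, Gimap1, Gimap5 and Gimap3. Gimap6 and Gimap3 are on the minus strand and the other 6 on the plus strand. Gimap9 overlaps Gm46958, an antisense noncoding gene of the RefSeq annotation. How reads were assigned to strands is not given in the sources used here. Reads of Gimap9 and Gm46958 therefore cannot be told apart where the genes overlap, at chr6:48676121-48676809. Gimap9 extends beyond the overlap to chr6:48679116. Gimap3 and Gimap5 share 190 stretches of 50 bases, the length of a read, which are 9.07% of those in Gimap3 and 10.03% of those in Gimap5, whereas the other members share none among themselves or with these genes. Reads from the shared stretches could not be mapped uniquely, so values of Gimap3 and Gimap5 come from the rest of each transcript.

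Within 10 kb of the cluster, the Rag2-/- library had 5 Pax5 peaks and the R31Q/- library 3 (a peak is a region where the authors' peak caller found reads enriched over input). In each list, 2 of these peaks were common, meaning that they overlapped a peak of the other list by at least 1 base. Over the whole genome, 37.5% of the 41983 peaks in the Rag2-/- list and 81.6% of the 18821 peaks in the R31Q/- list were common. Of the Rag2-/- peaks 33.1% held a repeated stretch of 24 bases, which no peak of the cluster held, and 55.8% of the Rag2-/- peaks without it were common. This stretch was chosen as the most frequent one in Rag2-/- peaks that were not common. Leaving out the peaks that hold it therefore raises the common share through that choice. With a margin of 100 kb, the counts were 11 and 8, with 7 common peaks in each list. The peak lists hold positions only, with 1 library each, so the strength of binding could not be compared and no test was possible. The genotype labels give Rag2-/- for only 1 of these libraries. Differences between the lists due to R31Q and to Rag2 therefore cannot be told apart.

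**Figure D1:**
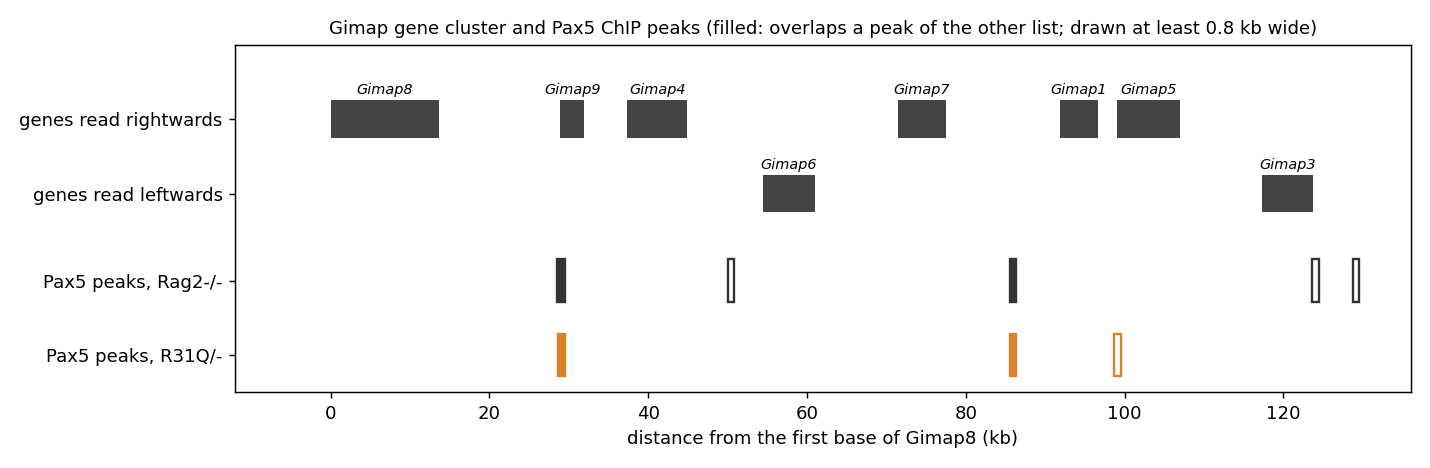
The x axis gives the distance from the first base of Gimap8 in kb, with genes by the direction in which they are read in the upper rows and Pax5 peaks of each list in the lower rows. Filled boxes mark peaks that overlap a peak of the other list, 2 in each, and open boxes mark the 3 peaks found in the Rag2-/- list alone and the 1 found in the R31Q/- list alone.

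The first common peak covered the start of Gimap9, at chr6:48675746-48676685 (940 bp) in the Rag2-/- list and chr6:48675787-48676662 (876 bp) in the R31Q/- list, with its midpoint in the untranslated part of the first exon, 80 and 89 bp after the start. The second lay between Gimap7 and Gimap1, at chr6:48732704-48733259 (556 bp) and chr6:48732717-48733271 (555 bp), 6066 and 6053 bp before the start of Gimap1. The median width was 332 bp in the Rag2-/- list and 559 bp in the R31Q/- list. The 3 peaks of the Rag2-/- list with no partner were narrow for that list, at 249, 247 and 249 bp. They lay between Gimap4 and Gimap6 at chr6:48697175-48697423, across the start of Gimap3 at chr6:48770828-48771074, and 5215 bp before the start of Gimap3 at chr6:48775942-48776190. In the last of these, 13.5% of the 50-base stretches occurred more than once in the genome, against 0% in the other 2 peaks. Across that list, 18.6% of the 3336 peaks under 260 bp wide were common, whereas of the peaks within 1 kb of any gene start 90.5% were. The peak of the R31Q/- list with no partner was 802 bp wide and covered the start of Gimap5 at chr6:48745885-48746686, with its midpoint 88 bp into the untranslated part of the first exon. In that list 85.9% of the peaks within 1 kb of a start were common. Gimap8, Gimap4, Gimap6, Gimap7 and Gimap1 had no peak within 1 kb of a start in either list.

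The sequences of the region between Gimap7 and Gimap1, which was found in both lists, and of the peak at Gimap3, found in the Rag2-/- list alone, are shown on the plus strand. The upstream sequences of Gimap9 and Gimap5, whose starts were covered by a common and by an R31Q/--only peak, are shown in the direction of the gene, as is that of Gimap7, the member that moved most between genotypes with no peak near its start. The first 2 sequences are from the GRCm38.p6 genome and the other 3 from the RefSeq promoter table of that build. Capitals mark the stretch with the fewest mismatches to the 15-base paired-domain consensus of Pax5 on either strand.

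Peak between Gimap7 and Gimap1, chr6:48732831-48733130: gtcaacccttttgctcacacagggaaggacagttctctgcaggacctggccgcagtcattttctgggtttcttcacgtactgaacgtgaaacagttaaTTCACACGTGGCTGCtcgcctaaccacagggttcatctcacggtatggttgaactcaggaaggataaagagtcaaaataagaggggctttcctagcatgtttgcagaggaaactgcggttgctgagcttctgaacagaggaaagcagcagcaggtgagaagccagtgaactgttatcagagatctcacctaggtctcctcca

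Peak at the start of Gimap3, chr6:48770828-48771074: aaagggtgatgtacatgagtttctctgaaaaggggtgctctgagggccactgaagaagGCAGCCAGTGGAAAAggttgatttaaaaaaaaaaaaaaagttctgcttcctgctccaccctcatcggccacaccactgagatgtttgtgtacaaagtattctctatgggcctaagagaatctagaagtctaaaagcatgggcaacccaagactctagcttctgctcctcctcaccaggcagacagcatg

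Upstream of Gimap9, chr6:48675885-48676134: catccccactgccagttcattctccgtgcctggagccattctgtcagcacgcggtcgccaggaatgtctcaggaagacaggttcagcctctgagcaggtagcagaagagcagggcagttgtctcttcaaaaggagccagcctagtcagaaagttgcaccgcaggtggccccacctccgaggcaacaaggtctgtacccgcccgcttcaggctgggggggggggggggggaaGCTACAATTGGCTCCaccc

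Upstream of Gimap5, chr6:48745947-48746196: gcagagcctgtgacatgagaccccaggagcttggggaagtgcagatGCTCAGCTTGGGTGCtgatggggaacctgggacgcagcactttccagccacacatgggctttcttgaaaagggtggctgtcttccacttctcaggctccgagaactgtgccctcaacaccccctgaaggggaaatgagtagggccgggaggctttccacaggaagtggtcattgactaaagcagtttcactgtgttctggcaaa

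Upstream of Gimap7, chr6:48718371-48718620: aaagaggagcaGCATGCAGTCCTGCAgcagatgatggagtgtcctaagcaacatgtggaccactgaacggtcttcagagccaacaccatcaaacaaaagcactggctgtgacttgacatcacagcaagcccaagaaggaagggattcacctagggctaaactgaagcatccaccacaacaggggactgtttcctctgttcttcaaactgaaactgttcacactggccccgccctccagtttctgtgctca

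Among the peak windows of the cluster, that between Gimap7 and Gimap1 held the closest match, with 3 mismatches of 15 bases on the minus strand in the middle 300 bp of the peak in both lists. In all, 7.80% of peaks in the Rag2-/- list and 8.17% in the R31Q/- list had as few mismatches in such a window. The peak at Gimap3 had 6 mismatches at best, and the other 5 entries of the lists in the cluster had 5. As many as 92.5% of all Rag2-/- peaks and 89.2% of all R31Q/- peaks had at most 5, so these matches are common. In the promoters, from 250 bases before to 50 after a start, Gimap8 and Gimap5 had 4 mismatches at best, and 25.7% of the 32851 promoters had as few. Gimap9, Gimap4 and Gimap1 had 5, and Gimap6, Gimap7 and Gimap3 had 6. A match is a description of letters and was not tested as a binding site.

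In wild-type cells, Gimap6 and Gimap1 were the most abundant members, at 384 ± 17.5 and 295 ± 22.5 TPM (mean ± SD, n = 2). Because TPM is scaled to transcript length, levels can be compared between genes. Gimap9 and Gimap4 followed at 88.7 ± 9.08 and 74.5 ± 15.7 TPM, with libraries that overlapped. Gimap5 stood at 34.9 ± 5.97 TPM and Gimap8 at 19.5 ± 4.25 TPM. Gimap7, at 15.7 ± 0.170 TPM, and Gimap3, at 15.3 ± 7.55 TPM, had the lowest means. The libraries of Gimap3 lay far apart, at 9.98 and 20.7 TPM, and overlapped those of both Gimap7 and Gimap8. Gimap6 was higher than 96.8% of the genes tested and Gimap3 higher than 42.3%.

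Depth was between 21625407 and 34488454 reads on genes per library, as worked back from the spacing of low TPM values. Every member had at least 250 reads in each library, so the number of libraries limits the precision. Pax5 itself measured 418 and 444 TPM in Pax5+/+ cells, 272 and 287 TPM in Pax5+/- cells, 306 and 293 TPM in Pax5 R31Q/- cells and 1242 and 1409 TPM in Pax5-/- cells. These values are counted over the whole gene and do not check the deletion. In bulk samples, more cells of a type and more RNA per cell cannot be told apart.

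**Figure D2:**
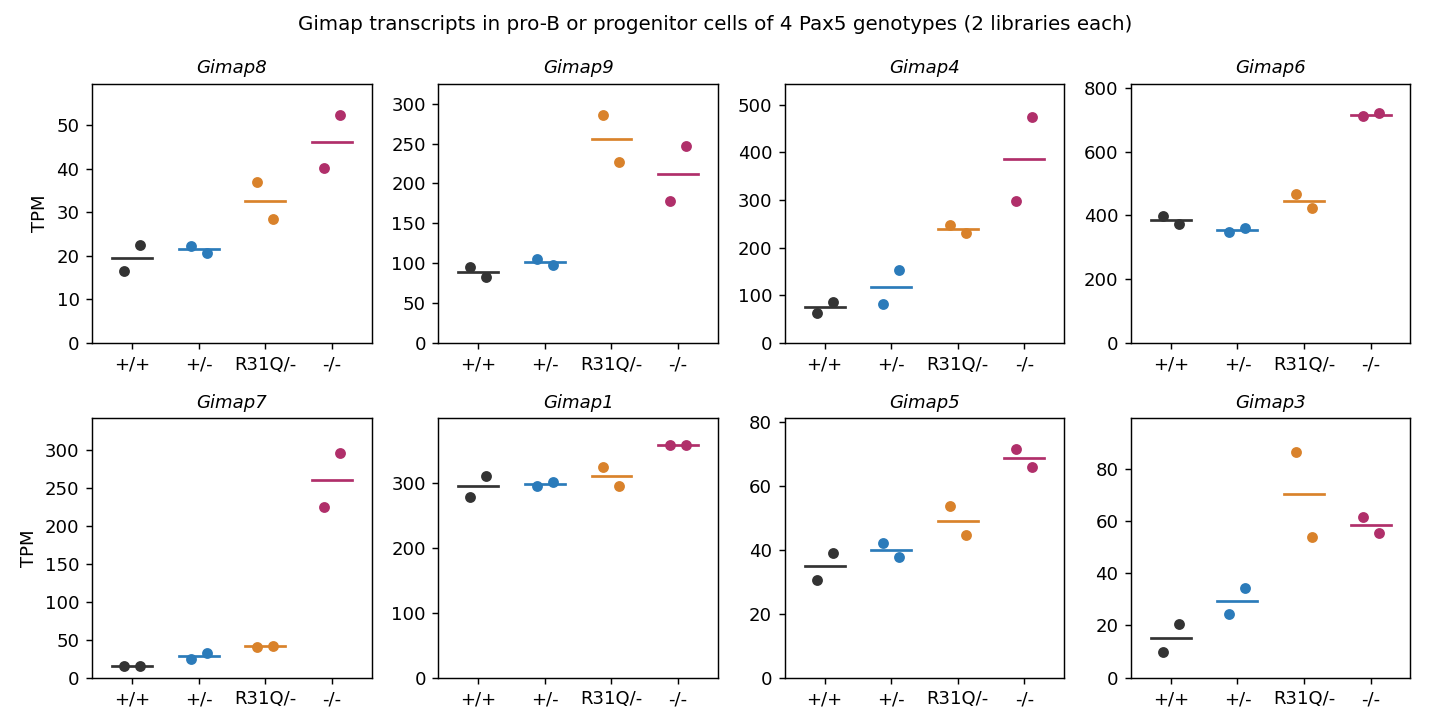
The y axis gives TPM, from 0, for each Gimap gene in its own panel. Points are single libraries, 2 per genotype, and lines their means. Gimap7 stood between 15.6 and 42.1 TPM in the 6 pro-B libraries and at 225 and 297 TPM in the Pax5-/- libraries, whereas Gimap1 stayed between 279 and 359 TPM throughout.

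Genotypes were compared with limma on log2(TPM + 1), where the added 1 shrinks changes of low genes. All 4 genotypes entered the fit, with Benjamini-Hochberg adjustment over all genes tested. A gene passed at an adjusted p-value under 0.05. A stricter call, after the study's methods, also asked for a difference of more than 3-fold and a mean of more than 5 TPM in a genotype compared. An exact permutation of 2 against 2 libraries reaches p = 0.333 at the lowest (two-sided), and limma therefore borrows the spread of other genes. The 3 comparisons against Pax5+/+ share their control libraries.

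In Pax5 R31Q/- pro-B cells 4 members were higher than in the wild type, and none was lower. These were Gimap3, Gimap4, Gimap7 and Gimap9, of which Gimap9 and Gimap4 are neighbours. The median log2 fold change of the 8 members was 1.03, against 0.04 over all genes tested. Over all genes, 1.62% passed in the upward direction. Gimap3 and Gimap4 also met the stricter call, which 0.275% of all genes met upward. The study picked out both genes on these samples, so their direction is not independent evidence.

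Gimap3, which encodes the mitochondrial member, was measured at 9.98 and 20.7 TPM in the Pax5+/+ libraries and at 86.4 and 53.9 TPM in the Pax5 R31Q/- libraries. Its mean was 4.58-fold higher, although the libraries of each genotype were far apart. The log2 fold change was 2.17 ± 0.35 (SE; adjusted p = 0.0164). Gimap4 stood at 63.4 and 85.5 TPM in Pax5+/+ cells and at 248 and 232 TPM in Pax5 R31Q/- cells. The means differed 3.22-fold (log2 fold change 1.69 ± 0.32; adjusted p = 0.0308).

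Gimap9 was measured at 95.1 and 82.3 TPM in Pax5+/+ cells and at 285 and 227 TPM in Pax5 R31Q/- cells. The log2 fold change was 1.51 ± 0.18 (adjusted p = 0.00537). Gimap9 is the member with a common peak over its start. Gimap7, which had no peak near its start, was tightly grouped at 15.6 and 15.9 TPM in Pax5+/+ cells and at 40.8 and 42.1 TPM in Pax5 R31Q/- cells. Its mean was 2.63-fold higher (log2 fold change 1.34 ± 0.17; adjusted p = 0.00695).

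The other 4 members did not pass. Gimap8 was at 16.5 and 22.5 TPM in Pax5+/+ cells and 37.1 and 28.4 TPM in Pax5 R31Q/- cells (log2 fold change 0.72, 95% interval 0.23 to 1.21; adjusted p = 0.118). Gimap5, whose start carried the R31Q/--only peak, was at 30.7 and 39.1 TPM against 53.5 and 44.5 TPM (log2 fold change 0.48, 95% interval 0.12 to 0.85; adjusted p = 0.155). Both intervals lie above 0 without correction for the number of genes, and Gimap8 passed with limma-voom (adjusted p = 0.0494). Gimap6 and Gimap1, the most abundant members, had log2 fold changes of 0.21 (95% interval -0.03 to 0.45) and 0.07 (95% interval -0.18 to 0.32). In 7 of 8 members, all but Gimap1, both Pax5 R31Q/- libraries were above both Pax5+/+ libraries, as were those of 34.6% of all genes.

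These calls depended on each of the 4 libraries compared. Without the first Pax5+/+ library 2 members passed (Gimap7 and Gimap9), without the second 1 (Gimap3), without the first Pax5 R31Q/- library 0 and without the second 1 (Gimap9), and the log2 fold changes of these 4 genes stayed above 0 each time. The Gimap4 call was lost with no filter (adjusted p = 0.0791) and the Gimap3 call in the fit of these 2 genotypes only (adjusted p = 0.0970).

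Markers of other cell types also differed in Pax5 R31Q/- cells, most of them without passing. Over all genes, 1.62% passed upward and 2.55% downward in this comparison, and 18.8% had an unadjusted p under 0.05 in either direction. Of 6 markers of later B cells tested, 2 were lower (Ms4a1 and Cd22; 3 by limma-voom) and all 6 had an unadjusted p under 0.05, and the markers summed to 246 and 329 TPM in Pax5+/+ libraries and to 100 and 128 TPM in Pax5 R31Q/- libraries. Of 8 markers of lymphoid progenitors, 1 was higher (Flt3; 3 by limma-voom) and 3 had an unadjusted p under 0.05, with sums of 725 and 819 TPM against 1243 and 1208 TPM. Of 8 T cell markers tested, 1 was higher (Lck, a kinase of T cell receptor signaling) and 4 had an unadjusted p under 0.05. The 12 T cell markers summed to 138 and 165 TPM in Pax5+/+ libraries and to 182 and 183 TPM in Pax5 R31Q/- libraries. In these sums Lck went from 60.4 and 63.4 TPM to 94.4 and 98.7 TPM. The median log2 fold change of the 8 tested was -0.07, against 0.04 over all genes. The defining Cd3e, Cd3d and Cd3g stayed below 0.7 TPM in each library. Cd2 is counted in both the T cell list and the later B cell list.

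Of 12 pro-B cell markers, 1 was lower (1 higher and 1 lower by limma-voom) and 9 had an unadjusted p under 0.05, with sums of 18955 and 22118 TPM in Pax5+/+ libraries and 17461 and 17867 TPM in Pax5 R31Q/- libraries. Of 8 markers of NK and innate lymphoid cells tested, 1 was lower (Prf1), and the markers summed to 32.4 and 36.0 TPM against 38.8 and 24.1 TPM. The 6 endothelial, 7 myeloid and 4 erythroid markers tested gave 0 calls by limma on TPM and by limma-voom, with 2, 1 and 0 at an unadjusted p under 0.05. Myeloid markers summed to 324 and 241 TPM in Pax5+/+ libraries and to 526 and 487 TPM in Pax5 R31Q/- libraries. The part of these markers in the Gimap values was not tested.

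**Figure D3:**
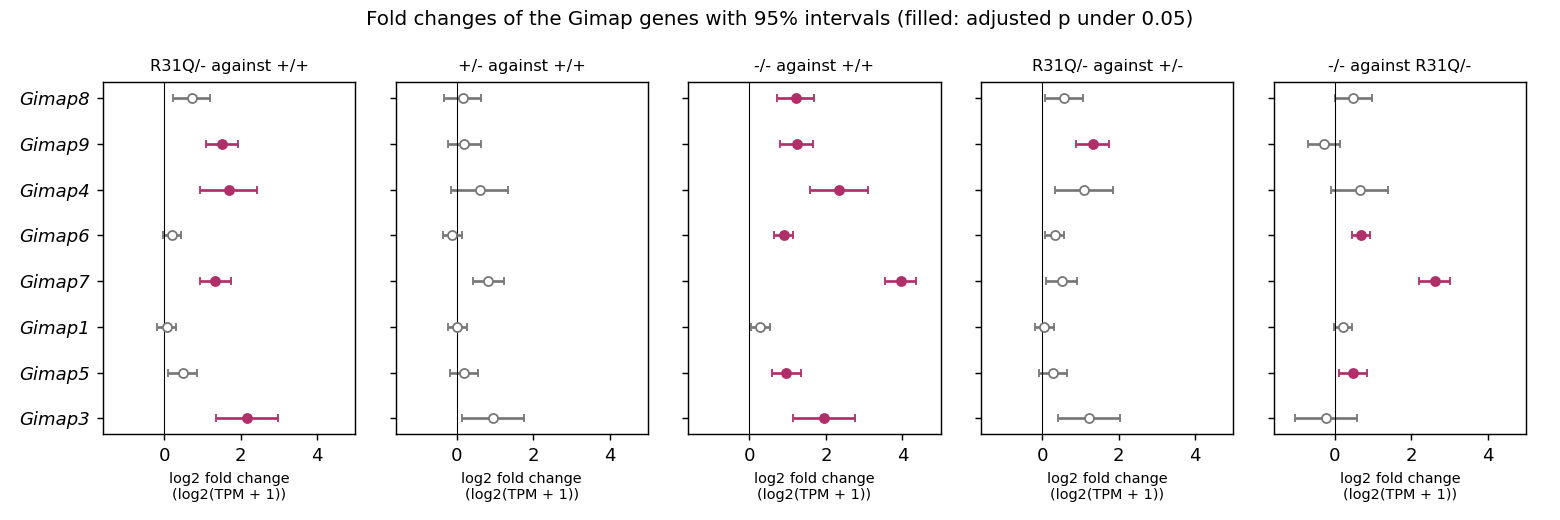
The x axis gives the log2 fold change on log2(TPM + 1), and each panel is 1 comparison, with Gimap genes in chromosomal order. Bars are 95% intervals of limma and filled points have an adjusted p under 0.05. Filled points number 4 for R31Q/- against +/+, none for +/- against +/+, 7 for -/- against +/+, 1 for R31Q/- against +/- and 3 for -/- against R31Q/-.

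Loss of 1 Pax5 allele alone gave values nearer to the wild type. None of the 8 members passed in Pax5+/- against Pax5+/+ cells, with 2 at an unadjusted p under 0.05 and 0 by limma-voom. Upward, 0% of all genes passed by limma on TPM, with 814 genes at an unadjusted p under 0.05 in either direction and 5 passing upward by limma-voom. Gimap7 stood at 25.2 and 32.8 TPM, above both wild-type libraries (log2 fold change 0.83, 95% interval 0.43 to 1.23; adjusted p = 0.231). Gimap3 stood at 24.2 and 34.2 TPM, also above both wild-type libraries (log2 fold change 0.95, 95% interval 0.14 to 1.76; adjusted p = 0.690). The Pax5+/- libraries of Gimap4 were far apart at 81.6 and 153 TPM and overlapped those of Pax5+/+ cells. The other 5 members had log2 fold changes between -0.12 and 0.20. In this comparison 3 members (Gimap3, Gimap7 and Gimap9) had both libraries above both wild-type libraries, against 21.1% of all genes, and Gimap6 had both below, as had 14.9% of all genes. The median of the members was 0.20, against 0.02 over all genes.

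Since Pax5 R31Q/- and Pax5+/- cells have the same number of null alleles, their comparison asks what the R31Q allele changed beyond the loss of the other allele. Gimap9 alone passed, at 105 and 98.3 TPM in Pax5+/- cells and 285 and 227 TPM in Pax5 R31Q/- cells. The means differed 2.52-fold (log2 fold change 1.32 ± 0.18; adjusted p = 0.0333). Of all genes, 0.268% passed upward. Gimap3 and Gimap4 were 2.403- and 2.05-fold higher by their means but did not pass (adjusted p = 0.270 and 0.288), and Gimap7 was 1.43-fold higher (adjusted p = 0.390). In 7 of 8 members, all but Gimap1, both Pax5 R31Q/- libraries were above both Pax5+/- libraries, against 29.7% of all genes. The Gimap9 call was lost in the fit of these 2 genotypes only (adjusted p = 0.0576), with no filter (adjusted p = 0.0852) and without any 1 of the Pax5+/+, Pax5+/- or Pax5 R31Q/- libraries (adjusted p = 0.0750 to 0.299), while its log2 fold change stayed above 0.

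Markers moved in this comparison too. Of 12 pro-B cell markers Kit, the receptor for stem cell factor, was higher in Pax5 R31Q/- cells, at 84.2 and 96.7 TPM against 35.9 and 46.1 TPM in Pax5+/- cells (log2 fold change 1.13; adjusted p = 0.0328). Of 6 markers of later B cells tested, 0 passed by limma on TPM and 2 were lower by limma-voom, and 5 had an unadjusted p under 0.05, against 8.79% of all genes. Their log2 fold changes had a median of -1.08, against 0.01 over all genes, and their levels summed to 257 and 225 TPM in Pax5+/- libraries and to 100 and 128 TPM in Pax5 R31Q/- libraries. In the other marker lists 0 passed by limma on TPM, and by limma-voom 1 T cell marker was lower. The part of these markers in the Gimap9 value was not tested.

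In Pax5-/- cells, 7 of the 8 members were higher than in wild-type cells, and none was lower. Only the Pax5-/- libraries carry the progenitor label. In comparisons with them, the loss of Pax5 and the stage of the cells therefore cannot be told apart. The median log2 fold change of the members was 1.22, whereas that of all genes was -0.11. Upward, 16.2% of all genes passed and 2.87% met the stricter call, which Gimap7, Gimap4 and Gimap3 met among the members. The study picked out these genes on the same samples. With libraries scaled by median ratios, the median was 1.31 for the members and -0.02 for all genes.

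Gimap7 moved furthest, from 15.6 and 15.9 TPM to 225 and 297 TPM, a 16.6-fold difference (log2 fold change 3.95 ± 0.17; adjusted p = 8.9e-06). Among the lowest members in wild-type cells, it overlapped Gimap9 in Pax5-/- cells. Gimap4 reached 297 and 474 TPM, 5.18-fold above the wild type (log2 fold change 2.33 ± 0.32; adjusted p = 0.00128). Gimap3 reached 61.5 and 55.4 TPM, 3.81-fold above the wild type (log2 fold change 1.94 ± 0.35; adjusted p = 0.00431). Without the first Pax5+/+ library its log2 fold change was 1.45, less than the 3-fold of the stricter call.

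The other 4 members that passed moved less. Gimap9, at 177 and 247 TPM, and Gimap8, at 40.1 and 52.4 TPM, had log2 fold changes of 1.23 and 1.21. Gimap5, at 71.6 and 65.9 TPM, and Gimap6, at 712 and 720 TPM, had log2 fold changes of 0.97 and 0.90. Their adjusted p-values lay between 0.000544 and 0.00369. Gimap1, at 359 TPM in both libraries, differed by 0.28 (95% interval 0.04 to 0.53; adjusted p = 0.0724). It passed with median-ratio scaling, quantile normalization and limma-voom (adjusted p = 0.0437, 0.0115 and 0.0370). In all 8 members both Pax5-/- libraries were above both wild-type libraries, against 27.2% of all genes. All 7 calls held without any 1 of the 8 libraries.

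Many markers moved with these genes in Pax5-/- cells, where 16.2% of all genes passed upward and 19.7% downward. Of 12 pro-B cell markers 9 were lower, and Dntt, which encodes a DNA polymerase of V(D)J recombination, was higher. Of 8 markers of lymphoid progenitors 6 were higher, with a summed level of 4163 and 4669 TPM against 725 and 819 TPM in Pax5+/+ libraries. Of 8 T cell markers tested, 3 were higher (Lck, Thy1 and Trat1) and 1 was lower (Cd2), with a summed level of 436 and 524 TPM. The defining Cd3e, Cd3d and Cd3g were at 0.585 TPM or below in the Pax5-/- libraries. Of 8 markers of NK and innate lymphoid cells tested, 6 were higher and 2 lower, with a summed level of 108 and 77.7 TPM against 32.4 and 36.0 TPM in Pax5+/+ libraries. Of 6 endothelial markers tested, 4 were higher and 2 lower, with a summed level of 696 and 596 TPM against 269 and 286 TPM. The myeloid markers summed to 970 TPM in the first Pax5-/- library and to 178 TPM in the second, and only Csf1r passed of 7 tested. Of erythroid markers 2 of 4 and of later B cell markers 4 of 6 were lower. Cd2 is counted as lower in both the T cell list and the later B cell list. The study describes Cd2 as a gene that Pax5 activates directly. The part of these markers in the Gimap values was not tested.

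The direct comparison of Pax5-/- with Pax5 R31Q/- cells separated the members. Gimap7 was 6.30-fold higher in Pax5-/- cells (log2 fold change 2.61 ± 0.17; adjusted p = 7.2e-05) and alone met the stricter call, which 2.24% of all genes met upward. Gimap6 was 1.61-fold higher (log2 fold change 0.69 ± 0.10; adjusted p = 0.00240). Gimap5 passed narrowly (log2 fold change 0.48 ± 0.16; adjusted p = 0.0485). The Gimap5 call was lost with a pseudocount of 0.1, with no filter, with no variance trend and in the fit of these 2 genotypes only (adjusted p = 0.0507 to 0.0773), and without any 1 of the Pax5+/-, Pax5 R31Q/- or Pax5-/- libraries (adjusted p = 0.0586 to 0.251). Upward, 14.7% of all genes passed, and the median was 0.49 for the members and -0.13 for all genes. Downward, 2677 of 13436 genes passed. Of 12 pro-B cell markers 9 were lower, and of 8 lymphoid progenitor markers 6 were higher. Of 8 T cell markers 3 were higher, and of 8 NK and innate lymphoid markers 6 were higher and 1 was lower. Of 6 endothelial markers 3 were higher and 2 lower. Of 6 later B cell markers 1 was higher and 2 lower, and of 4 erythroid markers 2 were lower. The part of these markers in the Gimap values was not tested.

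Gimap3 and Gimap9, in contrast, were not higher in Pax5-/- cells, with log2 fold changes of -0.22 (95% interval -1.03 to 0.59) and -0.28 (95% interval -0.71 to 0.15). The intervals of both are wide enough to hold a difference in either direction. Gimap4 and Gimap8 had log2 fold changes of 0.65 (95% interval -0.11 to 1.40) and 0.49 (95% interval -0.001 to 0.97), and Gimap1 of 0.21 (95% interval -0.03 to 0.46). Of these, Gimap8 passed with median-ratio scaling, quantile normalization and limma-voom (adjusted p = 0.0311, 0.0255 and 0.0172), Gimap4 with limma-voom (adjusted p = 0.0490) and Gimap1 with quantile normalization (adjusted p = 0.0310). Both Pax5-/- libraries were above both Pax5 R31Q/- libraries in 6 members, all but Gimap3 and Gimap9, and in 29.4% of all genes. Without the second Pax5-/- library Gimap9 passed as lower in Pax5-/- cells (adjusted p = 0.0475).

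The summed level of the 8 members was 928 ± 29.5 TPM in Pax5+/+ cells, 991 ± 67.0 TPM in Pax5+/- cells, 1444 ± 138 TPM in Pax5 R31Q/- cells and 2107 ± 231 TPM in Pax5-/- cells (mean ± SD, n = 2). The make-up of this sum differed between genotypes. Gimap1 and Gimap6 made up 31.8% and 41.5% of it in Pax5+/+ cells, 21.5% and 30.8% in Pax5 R31Q/- cells and 17.1% and 34.2% in Pax5-/- cells. Gimap9 took its highest share in Pax5 R31Q/- cells, at 18.5% and 16.9%, and 8.67% to 11.1% in the other 6 libraries. Gimap7 took 11.6% and 13.1% in Pax5-/- cells and at most 3.16% elsewhere. Gimap8 held a share between 1.82% and 2.41% in all 8 libraries. These shares were not tested.

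**Figure D4:**
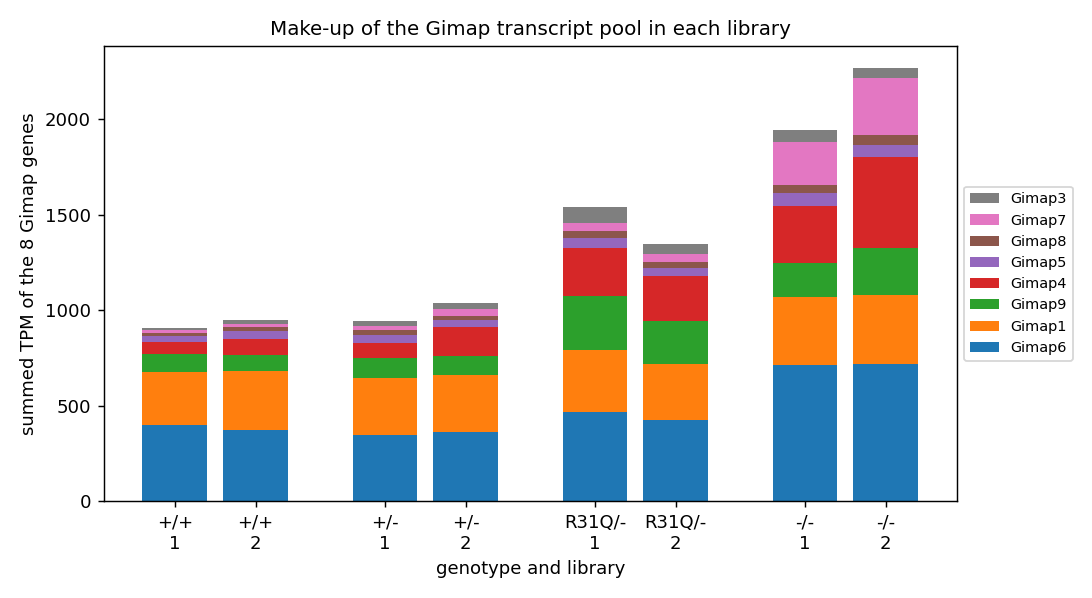
Stacked bars give the summed TPM of the 8 Gimap genes in each library, from 0, with genotype and library on the x axis and genes by color. The sums run from 907 TPM in a Pax5+/+ library to 2271 TPM in a Pax5-/- library, and the Gimap7 and Gimap4 blocks are taller in the Pax5-/- libraries than in the others.

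The order of levels changed with the genotype. In Pax5 R31Q/- cells, Gimap6 (445 TPM) and Gimap1 (310 TPM) still led, followed by Gimap9 (256 TPM) and Gimap4 (240 TPM), which overlapped, and by Gimap3 (70.2 TPM), Gimap5 (49.03 TPM), Gimap7 (41.4 TPM) and Gimap8 (32.7 TPM). In Pax5-/- cells the order of the means was Gimap6, Gimap4, Gimap1, Gimap7, Gimap9, Gimap5, Gimap3 and Gimap8, where Gimap4 overlapped Gimap1 and Gimap7 overlapped Gimap9. In Pax5+/- cells Gimap4 overlapped Gimap9 and Gimap3 overlapped Gimap7, and Gimap8 was lowest.

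The 9 listed genes within 100 kb of the cluster were examined next, of which 7 were tested. In Pax5 R31Q/- against Pax5+/+ cells 0 of the 7 passed by limma on TPM, with 1 at an unadjusted p under 0.05 and 0 by limma-voom, where 1.62% of all genes passed upward. In Pax5-/- cells 6 of the 7 were higher than in Pax5+/+ cells, against 16.2% of all genes. Against Pax5 R31Q/- cells 6 of the 7 were also higher in Pax5-/- cells, where 14.7% of all genes passed upward. AI854703, a transcribed pseudogene and the listed gene next to Gimap8, had the largest difference from Pax5+/+ cells (log2 fold change 2.39). It stood at 0.764 and 1.08 TPM in Pax5+/+ cells and at 9.15 and 8.91 TPM in Pax5-/- cells. Gm5111 (2.27), Repin1 (1.12), Tmem176a (0.92), Tmem176b (0.84) and Zfp775 (0.53) also passed, and Lrrc61 did not. Rarres2 and Gm7932 stayed below 0.3 TPM.

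**Figure D5:**
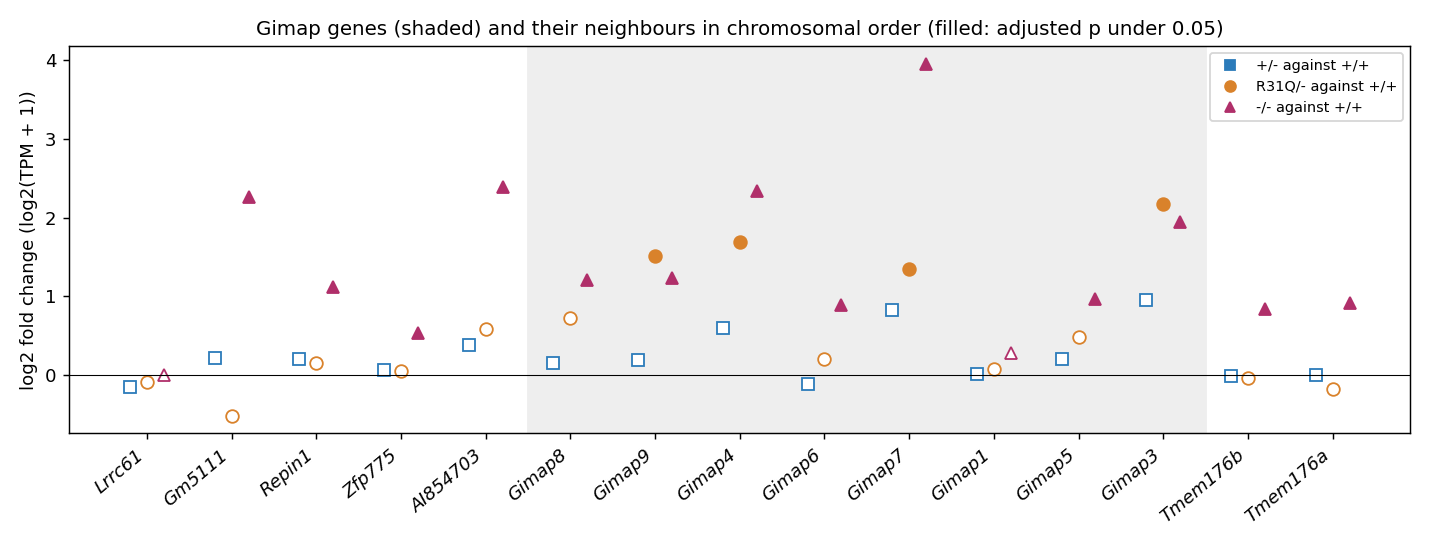
The y axis gives the log2 fold change against Pax5+/+ on log2(TPM + 1), and the x axis the 8 Gimap genes (shaded) with the 7 tested neighbours in chromosomal order. Filled symbols have an adjusted p under 0.05. The R31Q/- symbols are filled for 4 Gimap genes and no neighbour, and the -/- symbols for 7 Gimap genes and 6 neighbours.

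Genes with the most similar pattern were found by the root-mean-square difference of their log2 fold changes against Pax5+/+ in the other 3 genotypes, among genes of at least 5 TPM. Those near Gimap4 included Sulf2 (0.20) and Ext1 (0.22), and those near Gimap3 included Cd244a (0.29). For Gimap9 they were Trio (0.05), Pde8a (0.09) and Cgas (0.19), and for Gimap7, S100a4 (0.23), Bex6 (0.34) and Ly6a (0.38). For Gimap5 they were Gm5148, Tmem186 and Xrcc5 (0.02 to 0.03), for Gimap6 Setd4, Map3k14 and Rpl27a (0.02 to 0.04) and for Gimap8 Cd69, Phyhd1 and Eyelinc18 (0.07 to 0.08). Within the family, Gimap5 and Gimap8 were closest (0.20). These distances describe 3 contrasts that share controls and were not tested.

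Of 20 genes for lymphocyte survival, traffic and autophagy, the processes in which Gimap proteins take part, 1 was higher and 2 were lower in Pax5 R31Q/- than in Pax5+/+ cells, where 1.62% of all genes passed upward and 2.55% downward. Bcl2l1, which encodes the survival factor Bcl-xL, was lower at 55.5 and 47.1 TPM against 119 and 109 TPM (log2 fold change -1.14), and Klf2, which controls lymphocyte traffic, was lower at 22.1 and 13.3 TPM against 69.8 and 61.9 TPM (log2 fold change -1.87). In Pax5-/- cells 3 of the 20 were higher, Bcl2 and Ccr7 among them, near the 16.2% of all genes that passed upward, and 7 were lower, where 19.7% of all genes passed downward. The median log2 fold change of the list was -0.10 in Pax5 R31Q/- cells and -0.14 in Pax5-/- cells, against 0.04 and -0.11 over all genes. Gabarapl2, whose product is a partner of Gimap6 in autophagy, did not pass in either comparison (adjusted p = 0.367 and 0.343).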

How the data were processed

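The authors removed ribosomal reads, aligned 50-nt single reads to GRCm38/mm10 with STAR 2.4.2 and counted uniquely mapped reads with featureCounts. They deposited TPM for 25579 genes per library, a unit that divides reads by gene length and library total. For ChIP-seq, they aligned reads with Bowtie2 2.3.5.1 and called peaks with MACS against input, and the deposited lists hold positions and a score that is 0 throughout. The description of the R31Q/- ChIP library writes Rag2 (R31Q/-), whereas its characteristics give Pax5, which was followed.

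Genotypes were taken from the labels. log2(TPM + 1) was fitted with limma 3.58.1 in R 4.3.3, with 1 mean per genotype and a variance trend on the mean, for the 13436 genes with at least 1 TPM in at least 1 library. P-values were two-sided and adjusted by the Benjamini-Hochberg method. The stricter call left out 385 immunoglobulin genes. The authors tested read counts with DESeq2, which were not used here. Whole reads were recovered from TPM steps for all 18206 genes above 0 in at least 2 libraries (tolerance 0.01) and gave the depth and the limma-voom alternative. Scripts were tested on simulated data.

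Peaks were compared in Python 3.11.15 with the RefSeq annotation of GRCm38.p6. The members and all gene lists were chosen with earlier results of these data known. All 8 members, the listed genes within 100 kb, the 3 genes nearest to each called member by root-mean-square difference, and list genes where 5 or fewer passed are named. A few list genes named beside these were chosen after their values were seen. Some genes that these rules name are not reported here.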

Additional observations from a re-analysis of the deposited data

How the results depend on the processing

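Counts of members that passed were compared under another pseudocount, other filters, scalings and variance models, limma-voom and fits of 2 genotypes. The 4 calls of R31Q/- against +/+ became 0 to 4 when single libraries were left out, where the lone library is assumed to vary like the other genotypes. The 2 stricter calls of that comparison became 1 with no filter and 1 in the fit of 2 genotypes, 4 at 2-fold in place of 3-fold, and 0 to 2 when single libraries were left out. At 2-fold the stricter calls were 5 for -/- against +/+ and 1 for R31Q/- against +/-. Upward, 103 genes met the 2-fold call in R31Q/- against +/+, 746 in -/- against +/+ and 27 in R31Q/- against +/-, of 13436. The 1 call of R31Q/- against +/- was 0 with no filter and 0 in the fit of 2 genotypes, and 0 to 1 when single libraries were left out. The 3 calls of -/- against R31Q/- became 5 with quantile normalization and 5 with limma-voom, where the upward calls over all genes went from 1978 to 2697 and 2743. Directions reversed only for changes near 0. With single libraries left out, log2 fold changes of Gimap1 ranged from -0.0057 to 0.15 in R31Q/- against +/+, from -0.061 to 0.094 in +/- against +/+ and from -0.011 to 0.12 in R31Q/- against +/-, those of Gimap8 from -0.061 to 0.36 in +/- against +/+, and those of Gimap3 from -0.56 to 0.11 in -/- against R31Q/-. In +/- against +/+, Gimap1 gave -0.011 with median-ratio scaling and -0.011 with limma-voom. The cause was not tested. With a margin of 100 kb the peaks numbered 11 (7 common) and 8 (7 common). At or above the median width of its list, the Rag2-/- list had 2 peaks (2 common) and the R31Q/- list 2 (1 common). Over whole peaks, the fewest mismatches fell to 4 at Gimap9 in both lists (4 and 4) and to 4 at Gimap5. No paired analysis was possible because the labels give no replicate numbers that the genotypes share.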
